A study of Mus musculus with 5 samples.

Results

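The casein genes are the subject here. The members are the rows whose gene symbol is Csn1s1, Csn2, Csn1s2a, Csn1s2b or Csn3 in a table of RPKM values (read counts corrected for gene length and for library size), and all 5 were found among its 22609 genes. The table came from RNA sequencing of mammary glands of outbred mice, freed of lymph nodes and collected less than 12 hours after the mice had given birth. The wild-type group had 2 libraries and the group labelled Nfib-null (KO), for the gene of the transcription factor nuclear factor I/B, had 3. The series asks how far NFIB and STAT5 together govern the genes that pregnancy switches on in the gland. The table holds a single column for each genotype, so every value below stands for a whole group, with no spread between animals and no test. The column named Nfib-WT carries the name of the wild-type libraries. The other column, NfibFF-WC, was taken as the Nfib-null group because no other group remained, and the labels spell out neither that name nor the cells in which the gene was deleted.

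Caseins are the main proteins of mouse milk. The alpha-type and beta-caseins bind calcium phosphate through phosphorylated serines, and kappa-casein coats the resulting particles, the micelles, and keeps them in suspension. Their genes lie side by side in the genome and are transcribed in the secretory cells of the alveoli, where prolactin activates STAT5 through its receptor and the kinase JAK2, and glucocorticoid signalling adds to the response. STAT5 recognises the palindrome TTCNNNGAA.

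Promoter sequence was examined first because the series concerns the transcription factors that act there. RefSeq windows from build GRCm38.p6, 250 bases before to 50 bases after the annotated start, were matched for 3 of the 5 genes, Csn1s1, Csn2 and Csn1s2a. The 250 bases before the start are shown for the first 2 genes, with TTCNNNGAA in capitals. The window of Csn1s1 is chr5:87665958-87666207 on the plus strand and that of Csn2 is chr5:87699426-87699675 on the minus strand.
Csn1s1: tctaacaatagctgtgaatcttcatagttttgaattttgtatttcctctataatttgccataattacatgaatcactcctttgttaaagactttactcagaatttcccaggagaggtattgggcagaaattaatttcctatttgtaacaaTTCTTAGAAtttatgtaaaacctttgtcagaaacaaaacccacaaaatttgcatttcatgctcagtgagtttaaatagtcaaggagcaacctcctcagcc
Csn2: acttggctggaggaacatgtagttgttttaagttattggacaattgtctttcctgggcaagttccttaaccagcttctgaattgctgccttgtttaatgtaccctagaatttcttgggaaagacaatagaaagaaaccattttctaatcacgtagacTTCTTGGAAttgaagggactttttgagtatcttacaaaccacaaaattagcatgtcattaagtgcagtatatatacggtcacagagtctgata

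Each of the 3 windows held TTCNNNGAA once, and 8.30% of 32851 promoter windows of the same 300 bases held it. The motif reads the same on both strands. The match began 100 bases before the RefSeq start in Csn1s1 and 93 bases before it in Csn2, and in Csn1s2a it lay just past the RefSeq start. Counted from the start of the first-numbered GENCODE transcript, which lies 25 bases downstream of the RefSeq start in Csn1s1, at the same base in Csn2 and 117 bases downstream in Csn1s2a, the match began 125, 93 and 97 bases before it. The matches with 10 bases on either side are shown to compare them, at chr5:87666098-87666126 (plus) for Csn1s1, chr5:87699500-87699528 (minus) for Csn2 and chr5:87774460-87774488 (plus) for Csn1s2a.
Csn1s1 site: tttgtaacaaTTCTTAGAAtttatgtaaa
Csn2 site: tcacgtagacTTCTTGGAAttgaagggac
Csn1s2a site: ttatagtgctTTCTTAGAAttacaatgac

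The letters of the match were identical in Csn1s1 and Csn1s2a. The short NFI site TTGGC, searched on both strands and not overlapping the other motif in these windows, occurred once, in Csn2 at 248 bases before the start, and 46.7% of all windows held it. A match is a description of letters and not of binding, which these data did not measure.

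The targeted gene was not lower in the Nfib-null column. In this and all pairs of values below the wild type comes first and Nfib-null second. Nfib stood at 33.7 and 55.3 RPKM. Because reads from undeleted parts of the gene, or from cells in which it is intact, would count towards such a value, it checks neither the deletion nor the assignment of the columns, and every direction below depends on that assignment.

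All 5 caseins were lower in the Nfib-null column, and Csn1s2b was lower by far the most. Csn2, beta-casein, stood at 143846 and 50689 RPKM. Csn1s2a, an alpha-S2-type casein, stood at 120513 and 49694 RPKM. These were the highest and second highest values of all genes in both columns, so the order at the top of the table was the same in both genotypes.

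The alpha-S1-casein gene Csn1s1 stood at 61562 and 15930 RPKM. Kappa-casein, Csn3, stood at 34488 and 8795 RPKM. Csn1s1 ranked 5 and 3 among all genes, and Csn3 ranked 6 in both. Csn1s2b, the second alpha-S2-type casein, stood at 11360 and 712 RPKM. Its rank went from 8 to 76, and it was the only casein outside the first 10 genes of the Nfib-null column.

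**Figure D1:**
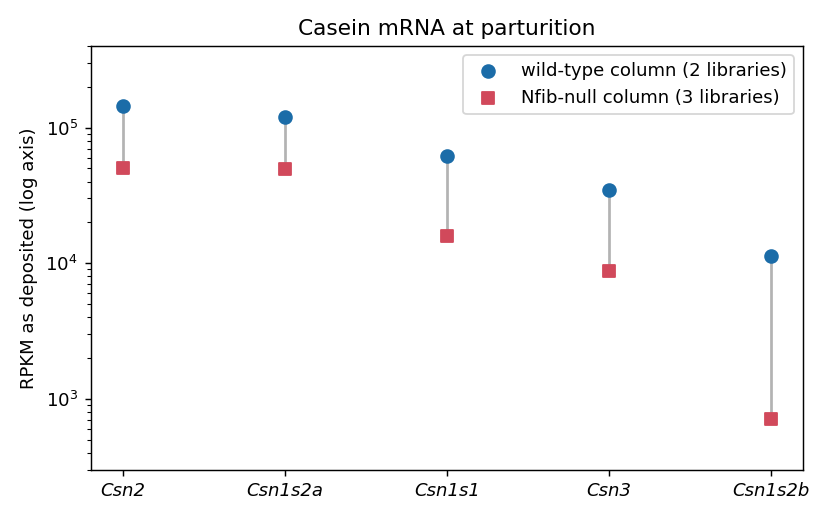
RPKM as deposited, on a log axis, for each casein in the wild-type column (circles) and the Nfib-null column (squares), 1 value per group and no error bars. All squares lie below their circles, and the gap is widest for Csn1s2b, at 11360 against 712 RPKM.

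Differences between the columns are given as log2(RPKM + 1), Nfib-null minus wild type, after each column was divided by a factor that brings the median gene to no difference. As deposited, the median gene was higher in the Nfib-null column by 0.35 on the log2 scale. After scaling, the log2 difference was −4.40 for Csn1s2b (21.2-fold lower), −2.38 for Csn3 (5.21-fold), −2.36 for Csn1s1 (5.14-fold), −1.92 for Csn2 (3.77-fold) and −1.69 for Csn1s2a (3.23-fold). With the deposited values the caseins were lower by 16.0-fold, 3.92-fold, 3.86-fold, 2.84-fold and 2.43-fold in the same order, and all 5 were past 2-fold against 2.95% of all genes. Csn1s1 and Csn3 differed by almost the same amount, and the most abundant caseins, Csn2 and Csn1s2a, differed least.

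A gene is called lower or higher here from 2-fold. By that limit 5 of 5 caseins were lower, against 747 of the 12511 genes whose mean over the libraries reached 1 RPKM (5.97%). At 4-fold 3 of 5 were lower, Csn1s2b, Csn3 and Csn1s1, against 1.23% of all genes. The median casein difference was −2.36. A single gene, Atp2b2, had a lower value than Csn1s2b, while 85 genes lay below Csn3, 89 below Csn1s1, 173 below Csn2 and 242 below Csn1s2a. Many of the most abundant genes were lower too: of the 30 genes whose mean reached 1000 RPKM 14 were lower (46.7%), and without the caseins 9 of 25.

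The calls for Csn2 and Csn1s2a depend on how the columns are put on a common scale. Where each column was brought to the same total, an alternative added once the data were known, their differences were −0.72 and −0.49, within 2-fold, and those of Csn1s1, Csn3 and Csn1s2b were −1.16, −1.18 and −3.21. On that scale 3 caseins were lower against 1.17% of all genes, but the median gene stood 1.02 higher in the Nfib-null column. Quantile normalization gives equal ranks equal values, so genes of the same rank in both columns cannot differ by it. With it Csn2, Csn1s2a and Csn3 had a difference of 0, Csn1s1 turned to 0.75 with its better rank, and Csn1s2b stood at −3.79, so that 1 casein was lower against 5.48% of all genes. Csn1s2b was thus lower by at least 2-fold under every one of the 11 settings computed, with the highest value −3.21.

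**Figure D2:**
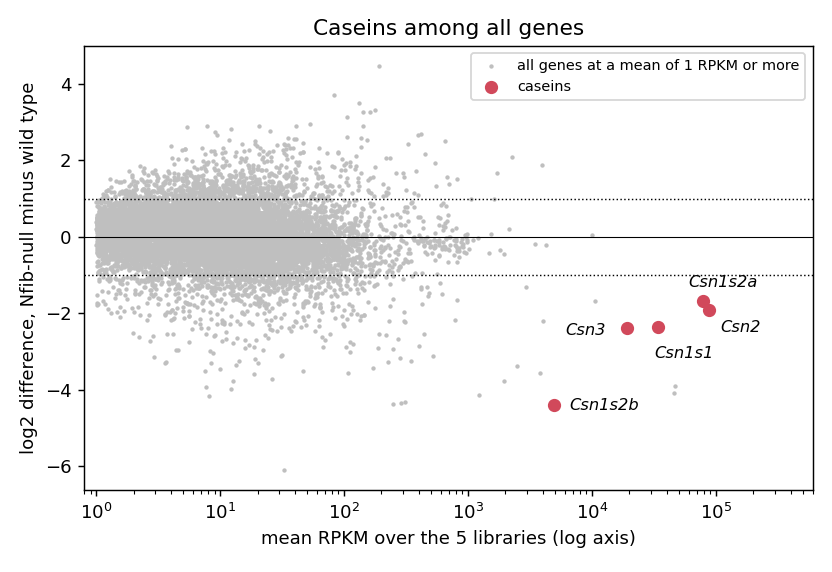
Log2 difference, Nfib-null minus wild type, after median-ratio scaling, against the mean RPKM over the 5 libraries on a log axis, for all 12511 genes (grey) and the 5 caseins (red), with dotted lines at 2-fold. The caseins lie at the right, between −1.69 and −4.40, all below the lower dotted line.

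**Figure D3:**
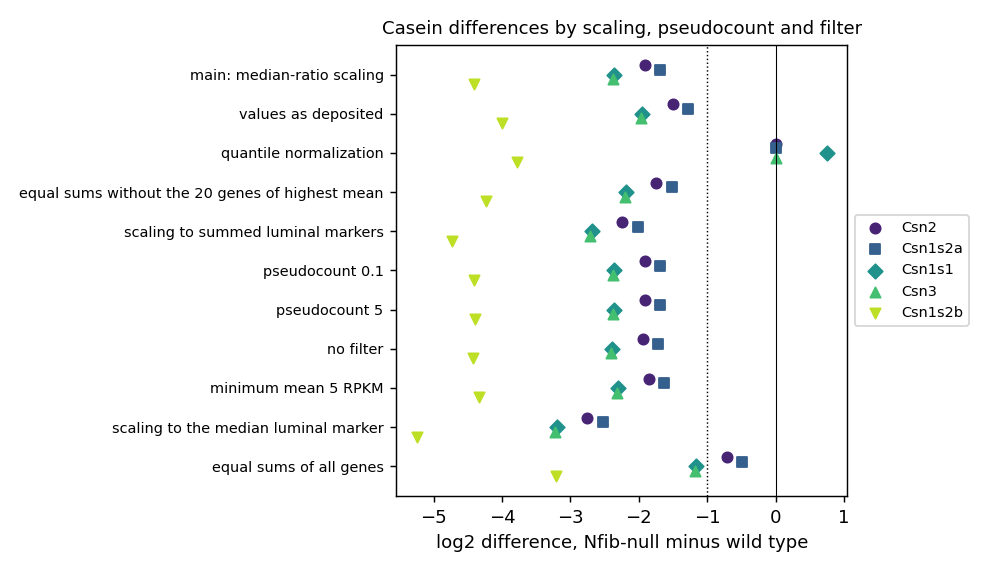
Log2 difference of each casein, Nfib-null minus wild type, under 11 choices of scaling, pseudocount and filter on low values, with a dotted line at 2-fold lower. Csn1s2b lies left of the line throughout. The other caseins lie right of it with quantile normalization, as do Csn2 and Csn1s2a with equal sums of all genes.

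As a share of all RPKM in a column, which needs no scaling between columns, the caseins made up 39.2% and 22.9%, a 1.71-fold lower share in the Nfib-null glands. Csn2 alone held 15.2% and 9.24%, and Csn1s2a 12.7% and 9.06%. Csn1s1 held 6.50% and 2.90%, Csn3 held 3.64% and 1.60%, and Csn1s2b held 1.20% and 0.130%. The 5 caseins summed to 371770 and 125819 RPKM, a 2.95-fold difference as deposited. The wild-type column as a whole summed to 947746 RPKM and the Nfib-null column to 548491. The other milk protein list summed to 257178 and 43304 RPKM, and the genes in neither list to 318799 and 379368 RPKM, so the remainder stood higher in the Nfib-null column while both groups of milk genes stood lower.

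The make-up of the casein pool also differed, by a comparison within each column that no common factor can alter. Csn2 formed 38.7% and 40.3% of casein RPKM, and Csn1s2a formed 32.4% and 39.5%. Csn1s1 formed 16.6% and 12.7%, Csn3 formed 9.28% and 6.99%, and Csn1s2b formed 3.06% and 0.566%. Csn2 and Csn1s2a together thus took 71.1% and 79.8% of the pool. The largest gain in share was that of Csn1s2a, 7.08 percentage points, and the largest loss that of Csn1s1, −3.90 points. Quantile normalization turns both of these, with Csn1s2a at 34.3% and 32.2% of the pool and Csn1s1 at 14.2% and 22.5%, while Csn1s2b goes the same way (3.64% and 0.248%).

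**Figure D4:**
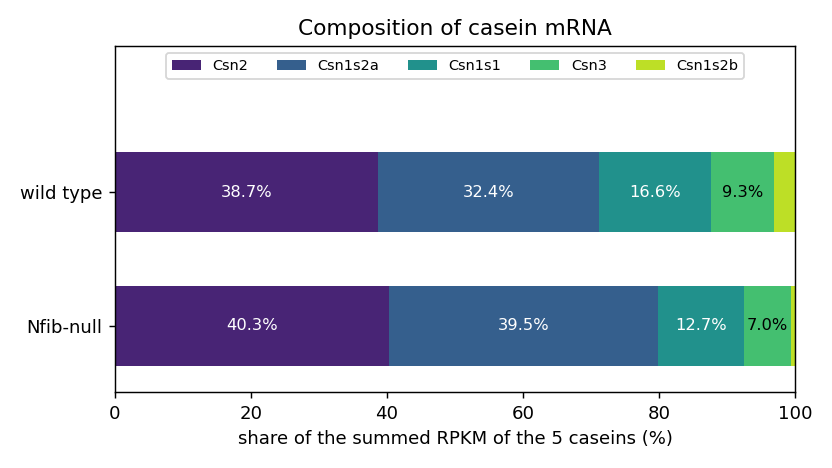
Share of the summed RPKM of the 5 caseins held by each gene, in percent, in the wild-type and Nfib-null columns. Csn1s2a widens from 32.4% to 39.5%, and Csn1s2b, unlabelled at the right edge, narrows from 3.06% to 0.566%.

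Ratios between single caseins show which ones kept step in the values as deposited. Csn1s1 over Csn3 was 1.79 and 1.81. Csn2 over Csn1s2a was 1.19 and 1.02, so that beta-casein and the alpha-S2-type casein stood nearly level in the Nfib-null column. Between these pairs the ratio moved more, with Csn1s2a over Csn3 at 3.49 and 5.65. The neighbouring alpha-S2-type genes parted furthest: Csn1s2a over Csn1s2b was 10.6 and 69.8, a 6.58-fold change in the ratio. With quantile normalization the pairing of Csn1s1 and Csn3 did not hold, at log2 differences of 0.75 and 0. Csn2 and Csn1s2a both stood at 0 there, and Csn1s2b at −3.79. How these ratios vary between animals of one group was not measured in these columns.

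In RefSeq the caseins follow each other as Csn1s1, Csn2, Csn1s2a, Csn1s2b and Csn3, with Prr27 and Odam among the genes between the last 2. The genes around them were nearly silent in comparison. Odam, which encodes an enamel-associated protein, stood at 1.46 and 0.573 RPKM. Sult1d1, a sulfotransferase gene, stood at 2.29 and 0.847 RPKM and was lower by −1.07 (−0.83 as deposited). Sult1e1, the estrogen sulfotransferase gene next to Csn1s1, stood at 0.178 and 0.0510 RPKM, and the row 4930432K09Rik, an older name of Prr27, at 0.190 and 0.0299 RPKM. Odam, Sult1e1 and Prr27 lay below the minimum mean and have no call. Of the 15 locus genes found from a wider list, 6 passed the minimum. Among them 1 was lower, Sult1d1, and 1 higher, the antibody J chain gene Igj (36.3 and 109 RPKM, 1.15). Over all genes 5.97% were lower and 6.95% higher.

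Most other milk protein genes were lower, and several of them differed more than any casein but Csn1s2b. Of 18 genes 12 were lower and 0 higher, against 5.97% and 6.95% of all genes. Their median was −1.98, against the 0 that scaling sets for all genes. Wap, whey acidic protein, stood at −3.91, Glycam1, a mucin-like milk protein, at −4.09, and Lalba, the regulatory subunit of lactose synthase, at −3.57. The iron carrier gene Trf stood at −1.69, level with Csn1s2a. Spp1, osteopontin, differed from these genes, at 8156 and 11249 RPKM (0.05, and 0.46 as deposited), and ranked 9 and 4. Mfge8 (−0.35), Cd36 (−0.45), Ltf (−0.51), Muc15 (−0.66) and Muc1 (−0.87) also lay within 2-fold. With quantile normalization Wap (−0.72) and Trf (−0.43) lay within 2-fold, Glycam1 (−2.26) and Lalba (−2.95) stayed lower, and Spp1 was higher (3.10). Because of these differences the caseins formed 59.1% and 74.4% of the RPKM of caseins and this list together. Wap held 10.8% and 1.66% of all RPKM while ranking 3 and 5, so the caseins per unit of Wap were 3.62 and 13.8. In the wild-type column Wap and Glycam1 hold the same value to the last digit, as do Lalba and Spp1, so those values are approximate. None of the 5 caseins was tied, but such ties leave a rank-based normalization of the column possible. The absence of a tie therefore does not show that the casein values are exact.

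Genes that act on casein genes differed in both directions. Of 31 regulators above the minimum 6 were lower and 1 higher, against 5.97% and 6.95% of all genes, with a median of 0.13. With deposited values 2 were lower and 6 higher, against 2.95% and 14.4% of all genes. The prolactin receptor gene Prlr stood at 18.0 and 9.13 RPKM (−1.29, and −0.91 as deposited), Jak2 at 9.58 and 15.5 (0.26), Stat5a at 63.7 and 55.7 (−0.59) and Stat5b at 22.1 and 26.6 (−0.14). The STAT5 genes therefore lay within 2-fold. Elf5, the ETS factor of alveolar cells, was lower at 711 and 321 RPKM (−1.56), Id2, needed for alveolar growth, at 163 and 56.9 (−1.91), and Nr3c1, the glucocorticoid receptor, at 42.9 and 27.5 (−1.02, and −0.62 as deposited). Akt1, a kinase of the insulin pathway, was lower by −1.34 (−0.93 as deposited) and Cish, a feedback inhibitor induced by STAT5, by −1.23 (−0.83 as deposited). Prlr, Nr3c1, Akt1 and Cish were thus within 2-fold with deposited values. The higher member was Socs3, an inhibitor of cytokine receptors (3.95 and 15.0 RPKM, 1.33). Socs2, another feedback inhibitor, did not go with Cish, at 8.24 and 12.7 RPKM (0.20, and 0.57 as deposited).

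Within 2-fold were Cebpb (0.95), Stat3 (0.95), Gata3 (0.47), Ybx1 (−0.03) and Yy1 (0), transcription factors linked to milk genes or to the mammary epithelium. Cebpb and Stat3 passed 2-fold as deposited (1.35 and 1.36) and with quantile normalization (1.08 and 1.19). The regulators Ghr (0.81) and Lmo4 (0.60) lay within 2-fold and passed it as deposited (1.21 and 1.00). Also within 2-fold were the other NFI genes, Nfia (0.52), Nfic (0.34) and Nfix (0.71), although Nfix passed 2-fold as deposited (1.11).

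Several genes whose products modify caseins or load the micelle with mineral were lower with them. Of 15 genes in a list for these steps 7 were lower and 1 higher, against 5.97% and 6.95% of all genes, with a median of −0.82. The list also holds genes with other roles, such as Fam20b (−0.09) and Slc35b2 (−0.82). Fam20c, the Golgi kinase that phosphorylates caseins, stood at 144 and 43.2 RPKM (−2.12). The caseins per unit of Fam20c were 2574 and 2910, so casein and kinase mRNA differed by similar factors. Fam20a, its pseudokinase partner, stood at 194 and 156 RPKM (−0.72). Atp2b2, the calcium pump of the apical membrane, stood at 81.1 and 0.426 RPKM (−6.11), and Slc34a2, a phosphate transporter, at 661 and 42.1 (−4.35). Atp2c2, a Golgi calcium pump, stood at −2.15 and its relative Atp2c1 at −0.18. Tmem165, a Golgi membrane protein, stood at −2.01, the phosphate transporter Slc20a1 at −1.99 and the calcium-binding protein gene Nucb2 at −1.87. The higher member was Nucb1 (29.4 and 84.1 RPKM, 1.08).

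Kappa-casein carries mucin-type sugar chains. Of 13 genes of that pathway above the minimum 2 were lower, Galnt12 (−1.49) and the sialyltransferase gene St3gal1 (47.9 and 31.2 RPKM, just past the limit), and 0 were higher, with a median of −0.35. Over all genes 5.97% were lower and 6.95% higher. With deposited values 1 of the 13 was lower and 3 higher, against 2.95% and 14.4% of all genes. Caseins enter the endoplasmic reticulum and lose their signal peptide there. Of 29 genes in a list for that step 18 were lower and 0 higher, with a median of −1.08. Among the lower ones were Sec11c, a signal peptidase subunit (194 and 67.1 RPKM, −1.93), and Ssr4, a translocon subunit (375 and 142 RPKM, −1.81). The list also holds protein folding genes. Of these Hspa5 (−1.48), Hsp90b1 (−1.38), P4hb (−1.33) and Pdia4 (−1.17) were lower. Pdia6 (−0.99), Calr (−0.97), Canx (−0.43) and Pdia3 (−0.40) lay within 2-fold. With deposited values 6 of the 29 were lower, against 2.95% of all genes. With equal sums of all genes, on which the median gene stands higher in the Nfib-null column, 51.5% of all genes were higher and 1.17% lower. By list, 0 of these 29 were lower and 0 higher, and of the 13 glycosylation genes 0 were lower and 3 higher. Of the 15 phosphorylation and mineral genes 2 were lower and 5 higher, of the 31 regulators 0 and 21, and of the 18 other milk proteins 7 and 1.

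The 5 genes outside the casein list that came nearest to the median casein difference, among genes whose wild-type value reached 100 RPKM, were Kcnk1 (−2.35), St6gal1 (−2.35), Elovl1 (−2.28), Glrx (−2.46) and B4galt1 (−2.23). The likeness rests on 2 columns only. Kcnk1 encodes a potassium channel, St6gal1 a sialyltransferase, Elovl1 a fatty acid elongase, Glrx glutaredoxin and B4galt1 the catalytic part of lactose synthase. Their levels in the wild type, 108 to 547 RPKM, lay far below those of the caseins.

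**Figure D5:**
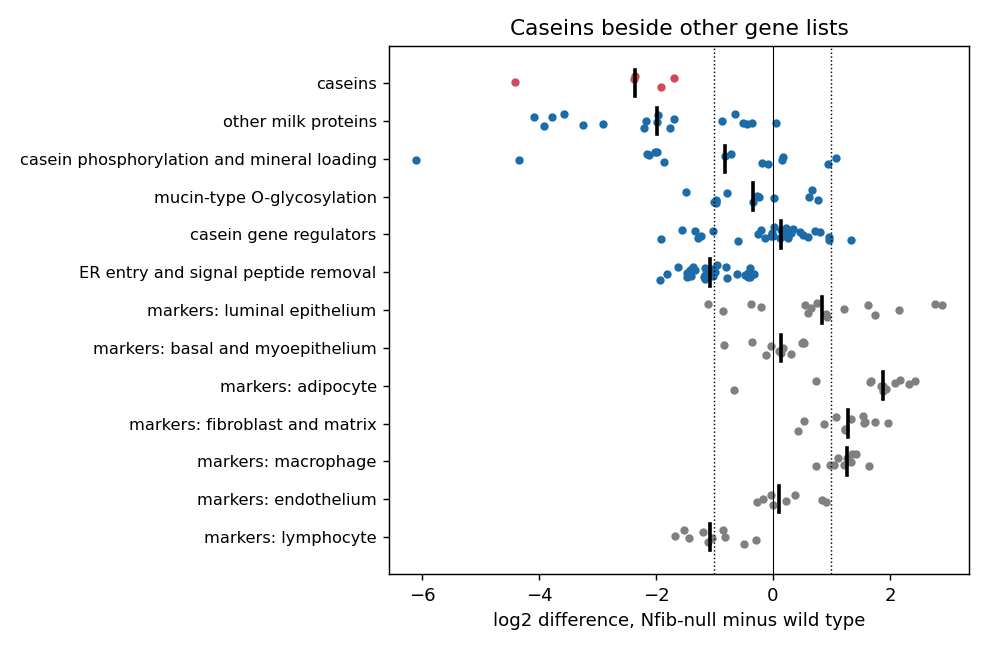
Log2 difference, Nfib-null minus wild type, after median-ratio scaling, for each gene above the minimum mean in the caseins (red), in lists of related genes (blue) and in cell type marker lists (grey), with vertical bars at each list's median and dotted lines at 2-fold. The caseins have the lowest median, −2.36, and the adipocyte markers the highest, 1.89.

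The glands were whole tissue, and fewer secretory cells and less casein mRNA per cell cannot be told apart in them. Of 16 luminal epithelial markers 6 were higher and 1 lower, against 6.95% and 5.97% of all genes. Their median was 0.83, and their sum was 1450 and 2414 RPKM. Casein RPKM per RPKM of these markers was 256 and 52.1, a 4.92-fold difference. Per unit of the luminal keratin Krt18 the caseins differed 7.35-fold, and per unit of the epithelial adhesion gene Epcam 5.74-fold. The size depends on the reference gene. Per unit of Elf5, the factor of alveolar cells, the caseins differed 1.33-fold, per unit of Prlr 1.498-fold and per unit of Stat5a 2.59-fold. Elf5, Prlr and Stat5a had lower RPKM in the Nfib-null column, while Krt18 and Epcam had higher RPKM there. Which reference follows the number of secretory cells was not tested. Of the 16 luminal markers the lower one was Cd24a (−1.11, and −0.70 as deposited). Kit (2.89) and Aldh1a3 (2.78), genes of luminal progenitor cells, were the highest of them.

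Markers of other cells also stood higher in the column with less casein. Of 12 adipocyte markers 10 were higher and 0 lower, against 6.95% and 5.97% of all genes, and their sum was 3508 and 14450 RPKM. Of 12 fibroblast and matrix markers 9 were higher (549 and 1953 RPKM in sum), and of 11 macrophage markers 9 were higher (231 and 772 RPKM). These counts depend on the scaling. As deposited 11 adipocyte, 10 fibroblast and 11 macrophage markers were higher, against 14.4% of all genes. With scaling to the summed luminal markers the counts were 10, 6 and 4, and with the median luminal marker 8, 1 and 0. On those scales the median gene stood at −0.28 and −0.72. With a pseudocount of 5, 5 macrophage markers were higher. With median-ratio scaling none of 8 endothelial and 11 basal or myoepithelial markers above the minimum passed 2-fold. As deposited, 2 of the 8 endothelial genes did, Vwf (1.24) and Cldn5 (1.23), against 14.4% of all genes higher. Of 10 lymphocyte markers 6 were lower (36.4 and 19.9 RPKM in sum). These markers stood at low values, and only 1 of the 10 reached a mean of 5 RPKM. As deposited 3 of them were lower, against 2.95% of all genes, and with a pseudocount of 5 the count was 0. The defining adipocyte gene Adipoq was not at 0 in either column (112 and 677 RPKM). The part of these cells in the casein differences was not tested.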

How the data were processed

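The deposited values are RPKM, per the file headers, in 1 column per genotype. The submitters' processing notes name CASAVA, TopHat and build mm9 with no version. For the counter, the annotation and the denominator, none is given in the sources used here. Low values of genes with a single GENCODE M21 transcript fell at steps that correspond to about 15000000 and 17600000 reads for wild-type libraries and 27200000 and 32700000 for the clearest Nfib-null libraries. These depths are approximate, since ties among 8 of 489 wild-type genes at 100 RPKM or more leave a rank-based normalization possible. A library of 10000000 reads would hold about 5768 Csn1s2b reads at the Nfib-null value, the lowest of any casein. Counting error is thus small for the caseins, while variation between animals was not measured.

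Genes whose mean, weighted by 2 and 3 libraries, reached 1 RPKM were kept (12511 of 22609). Columns were divided by median-ratio factors, 0.867 for wild type and 1.15 for Nfib-null, and a pseudocount of 1 was added (Python 3.11.15, pandas 2.3.3, numpy 2.4.6). The calculation was tested on simulated data in which randomly drawn genes changed in both directions. The simulation did not copy the lower values of the most abundant genes, so it does not check the scaling for these columns. limma and permutation tests need values per library and were not run. Coordinates are those of the RefSeq table and were not used with the authors' build. Named genes are the caseins, list members past 2-fold or acting on caseins directly, the 10 genes of highest wild-type value and the 5 of nearest difference, with some other markers named after their values were seen; not every eligible gene is named. The members, the 14 lists and the tests were chosen with earlier results of these data known.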

Additional observations from a re-analysis of the deposited data

How the results depend on the processing

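The 5 caseins were at least 2-fold lower under 9 of the 11 settings of scaling, pseudocount and filter. The settings that changed only the pseudocount or the filter kept the median-ratio scaling and could hardly move genes this abundant. In them Csn1s1 stood at −2.36 (pseudocounts 0.1 and 5), −2.38 (no filter) and −2.30 (minimum mean 5 RPKM). The count of 9 is therefore not a count of independent checks. With quantile normalization 1 was lower: Csn2, Csn1s2a and Csn3 gave 0 and Csn1s1 reversed to 0.75, which follows from equal ranks receiving equal values, and the casein share became 33.2% (wild type) and 35.3% (Nfib-null), opposite to the main direction, with Nfib-null Csn1s1 at 22.5% and Csn1s2b at 0.248% of caseins. With equal sums of all genes, chosen after the values were seen, 3 were lower, with Csn2 at −0.72 and Csn1s2a at −0.49. A limit of 4-fold left 3. Multiplied by transcript length, to approximate a share of reads, the casein share was 29.3% (wild type) and 12.6% (Nfib-null). These lengths imply 1373121 wild-type and 1064526 Nfib-null reads for every 1000000 mapped, so such shares are approximate, and the cause of the excess was not tested. Against mapped reads the casein share would be 40.2% and 13.4%. Scaling to the median luminal marker, also chosen afterwards, gave the lowest values, from −2.53 (Csn1s2a) to −5.24 (Csn1s2b). Of genes past 2-fold, 53.8% were higher with median-ratio scaling, 83.0% as deposited, 68.3% with equal sums when the 20 most abundant genes are left out, 97.8% with equal sums of all genes, and 25.4% and 4.26% with scaling to the sum or the median of luminal markers. No paired analysis was possible because the table holds 1 column per genotype and no replicate numbers, and leaving out each library was not run for the same reason.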
